A study of Homo sapiens with 3 samples.

Results

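The core of the Hippo pathway was described here through 9 of the 36601 genes measured: the LATS kinases LATS1 and LATS2, the MST kinases STK3 and STK4, the scaffold SAV1, the kinase adaptors MOB1A and MOB1B, and the angiomotins AMOT and AMOTL1. They were chosen by name and not by a cutoff on a measured value, though earlier results of these data were known. Expression and chromatin accessibility had been read in the same cells with the 10x Multiome assay, which counts RNA molecules by unique molecular identifiers (UMIs) and transposase cuts within peaks of open chromatin. The cells were NCI-H226, a human mesothelioma line that the labels call NF2 null, and CL3, 1 clone of it grown resistant to the TEAD inhibitor GNE7883 under doses raised from 0.25 to 3 µM. CL3 cells given GNE7883, CL3 cells given DMSO, and parental cells given GNE7883 or DMSO carried different hashtag antibodies and were pooled before the run. The expression matrix names no hashtag, so no cell could be given a line or a treatment. The cells were therefore read as a single pool, without a comparison of lines or treatments and without p-values, and intervals cover counting error only.

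In the Hippo cascade, STK3 and STK4 bind SAV1 and phosphorylate the LATS kinases and the MOB1 adaptors, and MOB1 in turn activates LATS. LATS kinases phosphorylate YAP and TAZ, which keeps these cofactors away from TEAD transcription factors on chromatin. NF2, also called merlin, recruits LATS to the membrane, and its loss is common in mesothelioma. Angiomotins bind YAP and NF2 at junctions and can hold YAP outside the nucleus. LATS2 is itself a known YAP and TEAD target gene.

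Of 11130 barcodes with at least 1000 UMIs and 1000 peak counts, 8913 also had at most 20% of UMIs from the mitochondrial genome and were kept, with a median of 1524 UMIs and 4034 peak counts per cell. Mesothelial markers summed to 10015 UMIs per 1000000 UMIs (CPM) with 0 of 13 genes at 0, most of it from the keratins KRT18, KRT8 and KRT19. CALB2 (771 CPM), UPK3B (272), MSLN (79.0) and WT1 (68.4) were counted too, as the mesothelioma label would have it. The lowest of the list were HAS1 (0.723 CPM, 12 UMIs), ITLN1 (14.3 CPM) and KRT5 (15.9 CPM). Immune markers summed to 8.80 CPM, with 3 of 9 at 0, and endothelial markers to 20.1 CPM. Fibroblast markers summed to 147 CPM with 0 of 7 at 0, of which COL1A1 gave 108 CPM, while the defining genes DCN and LUM had 3 UMIs and 1 UMI. Epithelial and squamous markers summed to 1830 CPM, nearly all of it from KRT7 (1826 CPM), with 3 of 10 at 0. NF2 was counted 4 times (0.241 CPM, 95% Poisson interval 0.0657 to 0.617). Downstream, YAP1 stood at 138 CPM (133 to 144), WWTR1, which encodes TAZ, at 49.0 CPM (45.7 to 52.5) and TEAD1 at 388 CPM (378 to 397).

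The promoters of 5 members are shown because their openness or their RNA sets them apart in the results that follow. LATS2 is the member that holds a TEAD motif and MOB1B is the member called lower in a large cluster. SAV1 is the member with a called peak at its start among the 8 with a RefSeq promoter. AMOT and AMOTL1 are the members with hardly any RNA. The sequences are from RefSeq on GRCh38.p14, 5′ to 3′ on the strand of the gene, and run from 250 bases before the start through the first 30 bases of the transcript. Capitals mark the TEAD motif GGAATG and the AP-1 motif TGANTCA, searched on both strands.
LATS2, chr13:21061557-21061836, minus strand: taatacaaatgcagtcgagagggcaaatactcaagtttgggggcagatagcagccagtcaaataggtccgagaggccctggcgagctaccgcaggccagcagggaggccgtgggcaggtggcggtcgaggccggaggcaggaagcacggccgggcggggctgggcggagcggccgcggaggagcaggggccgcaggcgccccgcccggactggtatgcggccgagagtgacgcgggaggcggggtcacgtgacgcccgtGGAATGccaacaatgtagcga
MOB1B, chr4:70902119-70902398, plus strand: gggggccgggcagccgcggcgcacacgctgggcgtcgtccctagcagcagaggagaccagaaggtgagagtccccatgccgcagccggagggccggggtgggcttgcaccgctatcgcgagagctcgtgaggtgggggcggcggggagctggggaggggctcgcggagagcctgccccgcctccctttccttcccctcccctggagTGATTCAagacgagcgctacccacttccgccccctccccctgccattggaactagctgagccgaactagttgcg
SAV1, chr14:50668277-50668556, minus strand: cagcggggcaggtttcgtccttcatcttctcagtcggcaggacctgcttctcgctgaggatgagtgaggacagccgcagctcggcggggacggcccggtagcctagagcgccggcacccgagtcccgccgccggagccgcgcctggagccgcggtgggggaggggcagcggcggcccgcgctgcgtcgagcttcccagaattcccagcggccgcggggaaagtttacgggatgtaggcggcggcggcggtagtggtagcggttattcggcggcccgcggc
AMOT, chrX:112840802-112841081, minus strand: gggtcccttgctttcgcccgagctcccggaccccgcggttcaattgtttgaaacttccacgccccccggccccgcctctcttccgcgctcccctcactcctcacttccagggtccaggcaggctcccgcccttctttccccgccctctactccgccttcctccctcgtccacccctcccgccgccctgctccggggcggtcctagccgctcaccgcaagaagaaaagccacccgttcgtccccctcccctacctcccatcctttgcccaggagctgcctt
AMOTL1, chr11:94768106-94768385, plus strand: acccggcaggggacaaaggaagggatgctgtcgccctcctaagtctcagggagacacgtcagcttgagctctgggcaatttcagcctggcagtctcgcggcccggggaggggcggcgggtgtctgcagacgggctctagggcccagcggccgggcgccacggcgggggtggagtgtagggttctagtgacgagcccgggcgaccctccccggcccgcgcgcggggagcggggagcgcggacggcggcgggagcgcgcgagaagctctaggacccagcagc
The TEAD motif was found in 14.03% and the AP-1 motif in 7.71% of all 35116 RefSeq promoter windows, which reach 50 bases past the start. The TEAD match in LATS2 begins 10 bases after the start and the AP-1 match in MOB1B begins 44 bases before it. LATS1 had an AP-1 match 245 bases before 1 of its starts. No other TEAD or AP-1 match stood in the 10 windows of the 8 members with a RefSeq promoter, which leaves out STK3. A match is a run of letters and not a measured binding site.

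The MST kinases were the best-counted members and the angiomotins were close to silent. STK3, which encodes MST2, had 3096 UMIs, or 187 CPM (95% Poisson interval 180 to 193), with at least 1 UMI in 27.9% of cells. STK4, which encodes MST1, had 1398 UMIs and 84.3 CPM (79.9 to 88.8), seen in 13.9% of cells. LATS2 stood at 54.9 CPM (51.4 to 58.5) and LATS1 at 44.2 CPM (41.1 to 47.6), so their intervals did not overlap. Among the adaptors, MOB1A had 82.9 CPM (78.6 to 87.4) and MOB1B 28.5 CPM (26.0 to 31.2). SAV1, the scaffold that joins MST to LATS, had 39.5 CPM (36.6 to 42.7). AMOT had 6 UMIs, each in a different cell (0.362 CPM, 0.133 to 0.787), and AMOTL1 had 31 UMIs in 29 cells (1.87 CPM, 1.27 to 2.65). The third angiomotin, AMOTL2, is not among the 9 genes and is a known YAP target. It had 763 UMIs (46.0 CPM, 42.8 to 49.4), so AMOT made up 0.75% of the 800 angiomotin UMIs.

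Since the assay counts unspliced RNA from whole genes too, levels of different genes were also divided by gene length. On this scale the order changed: MOB1A led with 31.5 CPM per 10 kb, followed by SAV1 with 11.4, STK4 with 7.42, LATS1 with 7.38 and LATS2 with 6.20. STK3, at 599 kb the longest of the 9, stood at 3.12 CPM per 10 kb, below STK4 and close to MOB1B at 3.30. AMOT and AMOTL1 stayed last, at 0.0548 and 0.110 CPM per 10 kb.

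**Figure D1:**
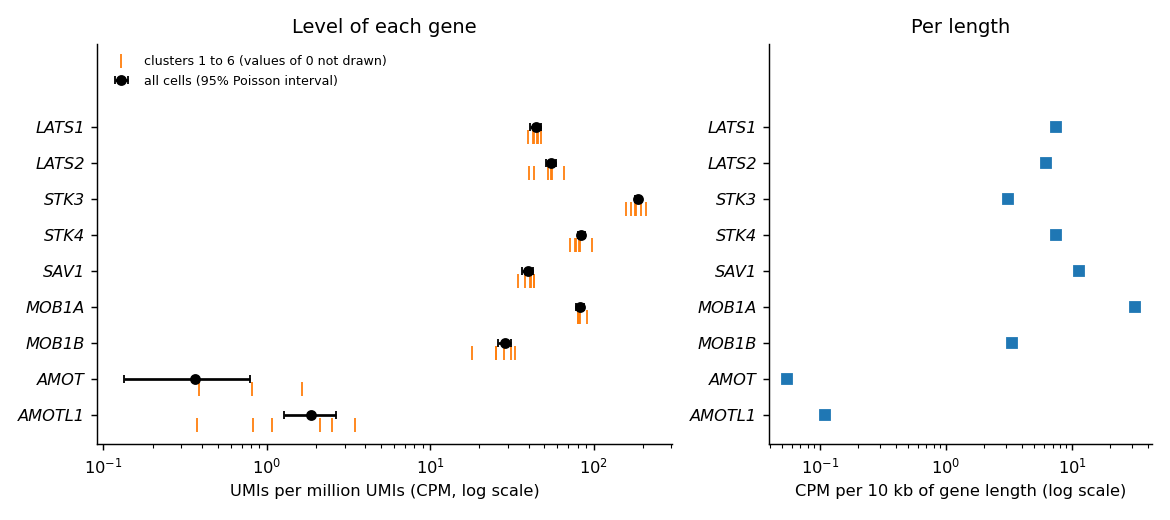
Left, level of each member over all 8913 cells in CPM on a log axis, with 95% Poisson intervals, and orange ticks for the levels in chromatin clusters 1 to 6. Right, the same levels divided by gene length. STK3 is highest at 187 CPM and falls to 3.12 CPM per 10 kb, while AMOT (0.362 CPM) and AMOTL1 (1.87 CPM) lie far to the left in both panels.

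Both paralogs were counted in the LATS, MST and MOB1 pairs. LATS1 gave 44.6% of the LATS UMIs, STK3 68.9% of the MST UMIs and MOB1A 74.4% of the MOB1 UMIs, all before any correction for length. The 9 genes together gave 8679 UMIs, or 523 CPM (512 to 534), and 57.4% of cells held a UMI of at least 1 of them. At this depth few cells showed both paralogs: 96 of 8913 cells for LATS1 and LATS2, 434 for STK3 and STK4, and 77 for MOB1A and MOB1B. A cell without a UMI can still express the gene.

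RNA quality and free RNA were set beside these levels, with mitochondrial genes left out of the totals. A gene was called at 1.5-fold with a 95% interval that excludes 1, given 100 UMIs over both sides and 20 CPM in the higher one. In the 2217 barcodes over the mitochondrial limit, 0 of the 7 members that could be compared were called against the cells kept, where 1.01% of 7400 genes were, and their log2 ratios lay between -0.12 and 0.13. In cells with at most 10% mitochondrial UMIs, 0 of 7 were called against cells with more, where 1.07% of 7287 genes were. LATS1 was lower there, at 39.2 CPM against 53.8 CPM (ratio 0.73, 0.58 to 0.91), but with the limit at 14% its ratio was 0.96 (0.83 to 1.11). MOB1A was at 110 CPM against 93.8 CPM (1.17, 1.02 to 1.35). Free RNA in 1211 near-empty barcodes held 63270 UMIs in all, mitochondrial genes included. Even a count of 0 there allows up to about 3 UMIs (1-sided 95% limit), or 49.9 CPM without mitochondrial genes. STK3 was the 1 member of 7 called in cells over this free RNA (3.26, 1.27 to 11.98), where 13.1% of 7450 genes were. SAV1, STK4, LATS2 and MOB1A had ratios of 2.76, 1.96, 1.92 and 0.97 with intervals that held 1, and MOB1B and LATS1 had 0 UMIs in the free RNA. Against the larger pool of barcodes with 2 to 20 UMIs 4 of 7 members were called, where 35.6% of 7475 genes were. STK4 (2.93, 1.77 to 5.26), STK3 (2.17, 1.61 to 2.98), MOB1B (2.13, 1.02 to 5.32) and LATS1 (1.93, 1.10 to 3.74) were higher in cells. In the same comparison LATS2, SAV1 and MOB1A had ratios of 1.19, 1.59 and 1.14 with intervals that held 1.

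Cells were then divided by chromatin alone, leaving out every peak within 100 kb of the transcript starts of a member. Neither the RNA of the 9 genes nor these peaks drew the groups. Peaks farther along the long genes STK3, AMOTL1 and STK4 were not left out. The 7 clusters hold 2618, 1845, 1529, 1430, 696, 678 and 117 cells. They are described by their leading genes: cluster 1 by IL1RAPL1, HMGA2 and SAMD3, cluster 2 by CLSTN2, cluster 3 by CYP17A1, ISM2 and SFTPD, cluster 4 by PPP2R2B, ADGRL3 and ITGB8, cluster 5 by ITLN1 and APOA1, and cluster 6 by INHBA and IGFBP5. Median depth lay between 1428 and 1643 UMIs per cell. Each cluster was set against all other cells, with genes called by the same rule. AMOT and AMOTL1 were under its floor in every cluster. AMOT had 3 UMIs in cluster 2, 2 in cluster 5 and 1 in cluster 4, and AMOTL1 had 1 to 12 UMIs in a cluster.

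Few member differences between these groups reached the call, a share close to that of all genes. Over the 7 clusters, 2 of 49 member comparisons were called, or 4.08%, beside 5.49% of 48174 comparisons over all genes. By cluster, 0 of 7 members were called in cluster 1 (5.15% of all genes), in cluster 2 (4.08%), in cluster 3 (6.15%), in cluster 4 (5.49%) and in cluster 6 (7.05%). Cluster 5 had 1 of 7 (7.36% of all genes) and cluster 7 had 1 of 7 (3.21%). Over clusters 1 to 6, 9 of 42 member intervals excluded 1 at any size (21.4%), beside 28.2% of those of all genes.

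**Figure D2:**
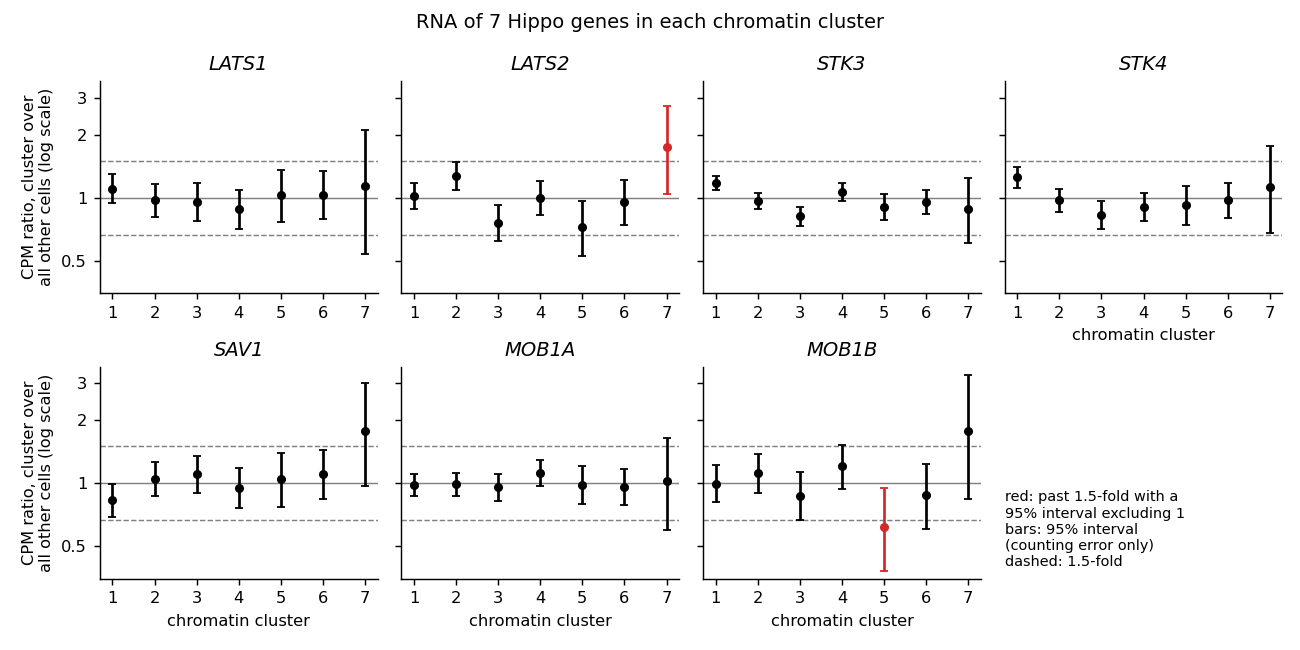
Ratio of CPM in each chromatin cluster over all other cells for 7 members, on a log axis, with 95% intervals for counting error, dashed lines at 1.5-fold and red for called values. MOB1B in cluster 5 (0.62) and LATS2 in cluster 7 (1.75) are called, and MOB1A stays between 0.96 and 1.12 over clusters 1 to 6.

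LATS2 varied most among the kinases. It was at 65.7 CPM in cluster 2 against 51.8 CPM in other cells (ratio 1.27, 1.09 to 1.47), at 43.4 CPM in cluster 3 against 57.1 CPM (0.76, 0.62 to 0.92) and at 40.3 CPM in cluster 5 against 56.0 CPM (0.72, 0.53 to 0.96). None of these passes 1.5-fold against all other cells, and with at most 10% mitochondrial UMIs the ratio in cluster 2 was on the other side of 1, at 0.86. Set directly against each other, cluster 2 was called higher than cluster 3 (1.51, 1.21 to 1.91), where 4.58% of all genes were called higher, and higher than cluster 5 (1.63, 1.19 to 2.26), where 6.44% were. Clusters 1, 4 and 6 lay between, at 55.6, 54.9 and 52.6 CPM. The call for LATS2 in cluster 7, 94.9 CPM against 54.4 CPM (1.75, 1.05 to 2.74), rests on 19 UMIs. In that cluster of 117 cells 4.04% of all 7031 genes had an interval that excludes 1, no more than 95% intervals leave out by counting error, and leaving out the cells with the highest doublet scores gave a ratio of 1.38.

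LATS1 did not follow LATS2. Its levels ran from 39.8 CPM in cluster 4 to 47.5 CPM in cluster 1, a range of 1.19-fold over clusters 1 to 6, and every interval of its ratios held 1. Of 6605 genes compared in all 6 clusters, 90.9% had a wider range, beside 29.3% for LATS2 at 1.63-fold. Over 20 finer chromatin clusters the Pearson correlation of LATS1 with LATS2 on log2(CPM + 10) was -0.28, given as a description of points that share 1 run and differ in depth.

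The MST kinases were highest in the HMGA2-rich cluster 1 and lowest in cluster 3. STK4 had 98.3 CPM in cluster 1 against 78.6 CPM in other cells (1.25, 1.12 to 1.40) and 71.8 CPM in cluster 3 against 86.7 CPM (0.83, 0.71 to 0.97). STK3 had 209 CPM in cluster 1 against 178 CPM (1.18, 1.09 to 1.27) and 157 CPM in cluster 3 against 192 CPM (0.82, 0.74 to 0.91). With at most 10% mitochondrial UMIs STK4 in cluster 1 and STK3 in cluster 3 were on the other side of 1, at 0.88 and 1.09. Both genes stayed under 1.5-fold, with ranges over clusters 1 to 6 of 1.37-fold for STK4 and 1.33-fold for STK3, where the median over all genes was 1.44-fold. Over the 20 finer clusters STK3 and STK4 had the highest correlation among the pairs of members (0.66).

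The adaptors went apart. MOB1A was the flattest member, from 79.9 CPM in cluster 6 to 90.8 CPM in cluster 4, a range of 1.14-fold that 96.8% of genes exceeded. MOB1B was called lower in the ITLN1-rich cluster 5, at 18.1 CPM against 29.3 CPM in other cells (0.62, 0.38 to 0.95), from 22 UMIs. When the components were not scaled the ratio was 0.84, but the best match of cluster 5 was then also that of cluster 3, and 25.8% of the cells in it or in cluster 5 were in both. The range of MOB1B, 1.83-fold over clusters 1 to 6, was exceeded by 16.1% of genes. Clusters 2 and 4 were called higher than cluster 5 for MOB1B when set against it directly, at 1.72 (1.08 to 2.84) and 1.83 (1.14 to 3.08), where 6.44% and 4.81% of all genes were called higher. SAV1 was lowest in cluster 1, at 34.5 CPM against 41.6 CPM in other cells (0.83, 0.69 to 0.99), and ran from 37.9 to 43.4 CPM in clusters 2 to 6.

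For each of these 7 members the intervals of neighbouring clusters in the order of levels overlapped throughout, so single steps in that order were not resolved at this depth. Among genes of at least 50 CPM, the pair most like each member over the 20 finer clusters was CRIM1 and RIPOR1 for LATS2 (r = 0.78 and 0.77), MIR4435-2HG and EPN1 for STK3 (0.89 and 0.87), BCL2L1 and PABPC4 for STK4 (0.80 and 0.79) and SLC25A5 and CSNK2B for MOB1A (0.74 and 0.73). These pairs are the highest of 3329 genes ranked over 20 points, a choice that raises r by itself, and shared expression was not tested. CRIM1 is in the YAP target list used further on.

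Of 80 other gene symbols listed for the pathway, 79 were in the matrix. In a cluster 52 to 55 of them could be compared, and 1 to 4 were called in each. Over the 7 clusters these were 17 of 371 comparisons (4.58%), beside 5.49% over all genes, so their share does not set the pathway apart. In cluster 1, VGLL3, a TEAD cofactor, was lower (0.64, 0.58 to 0.71). In cluster 2, WWC2, a KIBRA-family scaffold that binds LATS, was higher at 215 CPM against 141 CPM (1.52), as was the polarity gene LLGL2 (1.60). In the same cluster TNIK, a kinase of the MAP4K family, was lower at 105 CPM against 163 CPM (0.64), as was STK38L, a kinase of the LATS-related NDR family (0.67). In cluster 3, LIMD1, a LIM protein that inhibits LATS, was lower (0.62), as was the polarity scaffold SCRIB (0.54). In cluster 4, the cadherin FAT4 (0.53), the STRIPAK subunit STRIP2 (0.61) and FRMD6, the FERM protein also called Willin (0.65), were lower, and STK38L was higher (1.60). In cluster 5, STK38L was higher at 39.5 CPM against 18.0 CPM (2.20, 1.59 to 3.00), and TEAD4 was lower (0.59). In cluster 6, TNIK was higher at 265 CPM against 139 CPM (1.91, 1.70 to 2.13), as was the ubiquitin ligase NEDD4L (1.71). In the thin cluster 7, WWC2 (0.63) and the PP2A catalytic subunit PPP2CB (0.34) were lower.

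Cells were also ranked by the share of their UMIs in 20 YAP target genes, a list without LATS2. The ranking rests mostly on its abundant genes CRIM1 (925 CPM), RBMS3 (918), ASAP1 (547), MYOF (508) and DOCK5 (454). The known targets CCN2 (14.7 CPM) and ANKRD1 (4.10 CPM) add little to it. The 2228 cells with the highest share and the 2228 with the lowest were compared, with the targets at 7114 CPM against 2069 CPM. None of the 7 members was called between them, 0 of 7, where 10.1% of 6898 genes were called, 8.21% higher and 1.94% lower, and the median log2 ratio was 0.25 for members and 0.13 for all genes. STK3 had 227 CPM at the highest share against 162 CPM at the lowest (1.40, 1.27 to 1.56), STK4 97.8 CPM against 76.5 CPM (1.28, 1.10 to 1.49), and LATS1 52.6 CPM against 40.5 CPM (1.30, 1.05 to 1.61). LATS2 had 57.0 CPM against 47.8 CPM (1.19, 0.98 to 1.46), an interval that holds 1. MOB1A, SAV1 and MOB1B had ratios of 0.99, 1.05 and 0.97. Intervals that exclude 1 were found for 3 of 7 members and for 48.0% of all genes, with scaling to total UMIs. Scaled so that the median ratio of the genes compared was 1, all 7 ratios were lower. They were then 1.28 for STK3, 1.19 for LATS1, 1.17 for STK4 and 1.09 for LATS2. SAV1, MOB1A and MOB1B were then at 0.95, 0.91 and 0.88. Of 52 other pathway genes compared outside the target list, 5 were called higher and 0 lower: FAT4 (1.89), FRMD6 (1.79), the polarity scaffold DLG1 (1.73), LIMD1 (1.62) and the kinase MAP4K5 (1.59).

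Cycle genes gave no called member either. The 2228 cells with the highest share of S phase genes, against the 2228 with the lowest, had 0 of 7 members called, where 7.26% of 6916 genes were, and every member interval held 1. Ranked by G2/M genes in the same way, 0 of 7 were called, where 8.88% of 6905 genes were. STK3 stood at 202 CPM against 170 CPM (1.19, 1.08 to 1.32), LATS2 at 62.3 CPM against 51.6 CPM (1.21, 1.01 to 1.45) and STK4 at 91.4 CPM against 78.9 CPM (1.16, 1.002 to 1.34), with medians of 1504 and 1751 UMIs per cell at the highest and the lowest share. This ranking was chosen after groups from a minimum of 3 cycle UMIs had left 106 cells without any cycle UMI. In those groups 0 of 3 members were called in S phase cells (7.85% of all genes) and 0 of 7 in G2/M cells (6.54%).

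Chromatin at the starts of the 7 expressed members was open in a small share of cells, as is usual for single-cell cut counts. The peak over the start of MOB1A had a count in 8.41% of cells, that of STK4 in 5.99%, LATS1 in 5.62%, LATS2 in 4.84%, SAV1 in 4.64% and MOB1B in 3.56%. For STK3 the gene model of the files spreads transcript starts over more than 100 kb, and the strongest peak in that span, over its most downstream start, had a count in 14.4% of cells. The LATS2 peak, chr13:21061156-21062012, holds the whole promoter window printed above, the TEAD motif included.

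The angiomotins with hardly any RNA differed in their start regions. AMOT had a pair of peaks at its start, with counts in 3.18% (95% binomial interval by Clopper-Pearson, 2.82 to 3.56) and 2.22% of cells, close to the 3.56% of MOB1B (3.18 to 3.96). The start of another gene, LOC107985651, lies within 1 kb of these AMOT peaks, so their counts cannot be given to AMOT alone. The start peaks of MOB1B, LATS1 and STK4 likewise lie within 1 kb of a start of LOC124900711, LOC645967 and STK4-DT. At AMOTL1 no peak overlapped the start. The nearest, 659 bases away, had a count in 0.303% of cells (0.200 to 0.440).

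**Figure D3:**
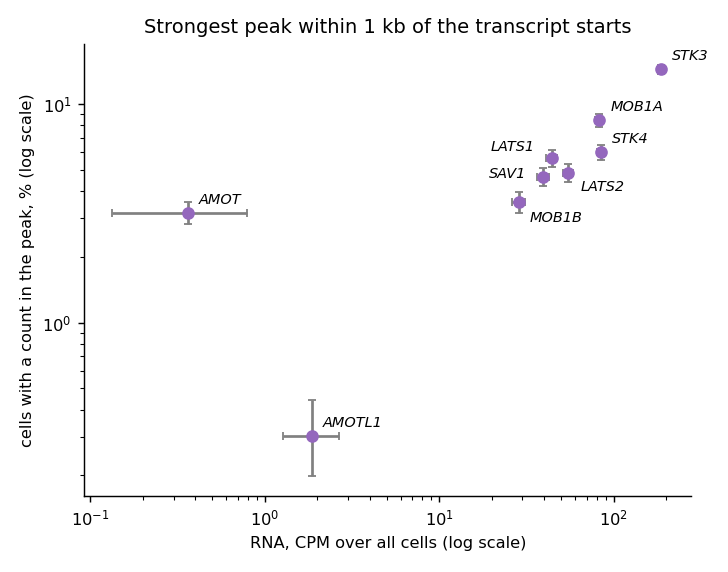
Share of cells with a count in the strongest peak within 1 kb of the transcript starts of each member, against its RNA level in CPM, both on log axes, with 95% Clopper-Pearson and Poisson intervals. AMOT (3.18% of cells, 0.362 CPM) lies just under the lowest expressed member, MOB1B (3.56%), and far left of it, and AMOTL1 (0.303%, 1.87 CPM) is low on both axes.

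Of 208 peaks within 100 kb of the transcript starts of the members, 66 had the 100 events needed for comparison, counting every 2 cuts as 1 event. Over the 7 clusters 40 of 462 comparisons were called (8.66%), beside 9.89% of 420784 over all peaks, most of which drew the clusters. Among the 8 members with a RefSeq promoter, SAV1 was the member with a called peak at its start: chr14:50667953-50668833 was higher in cluster 6, at 24.0 CPM of peak counts against 15.2 CPM in other cells (1.58, 1.15 to 2.14). SAV1 RNA in cluster 6 was at 43.4 CPM against 39.2 CPM (1.11, 0.84 to 1.44). STK3, which has no RefSeq promoter here, had called peaks within the span of its starts, such as chr8:98926857-98927773 in cluster 1 (1.60, 1.23 to 2.07). The STK3 peak over its most downstream start was higher in cluster 1 (1.26, 1.13 to 1.41), the cluster with the highest STK3 RNA, but under 1.5-fold. The start peaks of LATS2 and STK4 had intervals that held 1 in each of the 7 clusters, including those in which their RNA differed.

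Several differences lay away from the starts, and 11 of the 40 near the angiomotins. These were 4 calls for the 3 AMOT peaks and 7 for the 4 AMOTL1 peaks compared in each of the 7 clusters, beside 9.89% of comparisons over all peaks. All 4 AMOT calls were of the same peak, and most AMOTL1 calls were of the peak 26.0 kb from its start. Each cluster is set against all other cells, so calls of the same peak are not separate differences. The AMOTL1 call for chr11:94776250-94777174 in cluster 7 rested on 7 events. A peak 26.0 kb from the AMOTL1 start, chr11:94794394-94795194, was higher in cluster 1, at 15.7 peak CPM against 7.08 in other cells (2.22, 1.69 to 2.90). It was lower in cluster 3, at 4.07 against 10.5 (0.39, 0.22 to 0.65), in cluster 4 (0.60, 0.38 to 0.91) and in cluster 5 (0.55, 0.27 to 0.995). The ratio for cluster 4 became 1.01 when the chromatin components were not scaled, where 40.9% of the cells in cluster 4 or in its best match were in both. In the cells with the highest YAP target share it was at 11.9 peak CPM against 6.56 in those with the lowest (1.81, 1.20 to 2.80), the 1 of 37 window peaks called there, where 1.04% of all peaks were called higher and 0.792% lower. A second AMOTL1 peak 44.7 kb from the start, chr11:94813033-94813955, went the other way in cluster 1, at 6.20 against 11.6 peak CPM (0.53, 0.37 to 0.75), and was higher in cluster 6 (1.57, 1.04 to 2.30). Near AMOT, chrX:112851351-112852190 was lower in cluster 1 (0.44, 0.26 to 0.70) and cluster 2 (0.62, 0.38 to 0.99) and higher in cluster 3 (1.96, 1.33 to 2.84) and cluster 4 (1.73, 1.17 to 2.52). AMOTL1 RNA was too sparse for comparison in these clusters, with 12 UMIs in cluster 1 and 1 UMI in cluster 3.

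**Figure D4:**
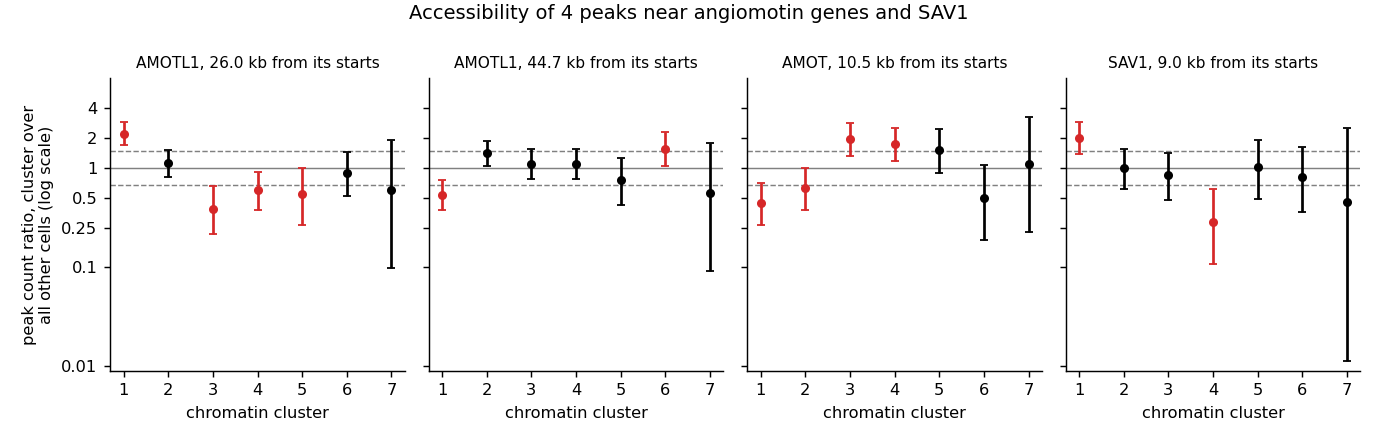
Ratio of peak CPM in each chromatin cluster over all other cells for 4 peaks near AMOTL1, AMOT and SAV1, on a log axis, with 95% intervals, dashed lines at 1.5-fold and red for called values. The AMOTL1 peak 26.0 kb away is higher in cluster 1 (2.22) and lower in clusters 3, 4 and 5, and the SAV1 peak 9.0 kb away is higher in cluster 1 (2.01) and lower in cluster 4 (0.28).

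Single peaks around the expressed members were called as well. At SAV1, chr14:50677345-50678218, 9.0 kb from the start, was higher in cluster 1 (2.01, 1.37 to 2.92), where SAV1 RNA was lowest, and lower in cluster 4 at 1.61 against 5.68 peak CPM (0.28, 0.11 to 0.62). At LATS2, chr13:20997452-20998373 was lower in cluster 3 (0.47, 0.24 to 0.84) and higher in cluster 4 (1.78, 1.21 to 2.59), and chr13:21079576-21080483 was lower in cluster 3 (0.52, 0.29 to 0.88), where LATS2 RNA was at 0.76. At LATS1, chr6:149767044-149767679 was lower in cluster 4 (0.54, 0.26 to 0.99) and chr6:149648249-149649163, at the start of KATNA1, in cluster 6 (0.49, 0.28 to 0.79). At MOB1A, chr2:74187967-74188845 was lower in cluster 1 (0.57, 0.37 to 0.84) and chr2:74147511-74148379, at the starts of BOLA3 and BOLA3-DT, in cluster 6 (0.54, 0.32 to 0.86). STK4 had 5 calls from its 14 peaks, each compared in all 7 clusters, a share of comparisons below the 9.89% over all peaks. All 5 calls were away from its start. They were led by chr20:44896249-44897157 in the thin cluster 7 (3.09, 1.16 to 6.74) and chr20:45041315-45042209 in cluster 6 (1.91, 1.05 to 3.27). STK3, with 58 of the 208 peaks, had 14 calls from its 19 peaks, each compared in all 7 clusters. Its share of comparisons called was thus close to the 9.89% over all peaks. Its peak chr8:98834720-98835603, between its first and last start, was lower in cluster 5 at 3.66 against 10.9 peak CPM (0.34, 0.14 to 0.69) and in cluster 3 (0.57, 0.36 to 0.87), and higher in cluster 6 (1.77, 1.20 to 2.54). MOB1B had 0 calls among its 3 peaks compared. In the 1592 cells with at most 10% mitochondrial UMIs 0 peak comparisons were called, and the LATS2 peak chr13:21079576-21080483 in cluster 3 and the AMOTL1 peak chr11:94813033-94813955 in cluster 6 turned to the other side, at 1.72 and 0.69.

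Wide chromosomal surroundings moved with some of these values. In cluster 4 the genes within 10 Mb of SAV1 on chromosome 14 had a median log2 ratio of -0.30 and the peaks there -0.53, while the medians over all genes and peaks were 0.00 and -0.04. The SAV1 start peak was at 0.68 (0.49 to 0.92) in that cluster, and SAV1 RNA at 0.95 (0.76 to 1.18). Around LATS2 on chromosome 13 the medians in cluster 4 were 0.28 for genes and 0.32 for peaks, with LATS2 RNA at 1.00 (0.83 to 1.20) and its start peak at 1.20 (0.93 to 1.53). In cluster 1 the genes and peaks around SAV1 both had medians of 0.21, and SAV1 RNA was at 0.83. The part of these surroundings in the peak values near SAV1 and LATS2 was not tested.

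**Figure D5:**
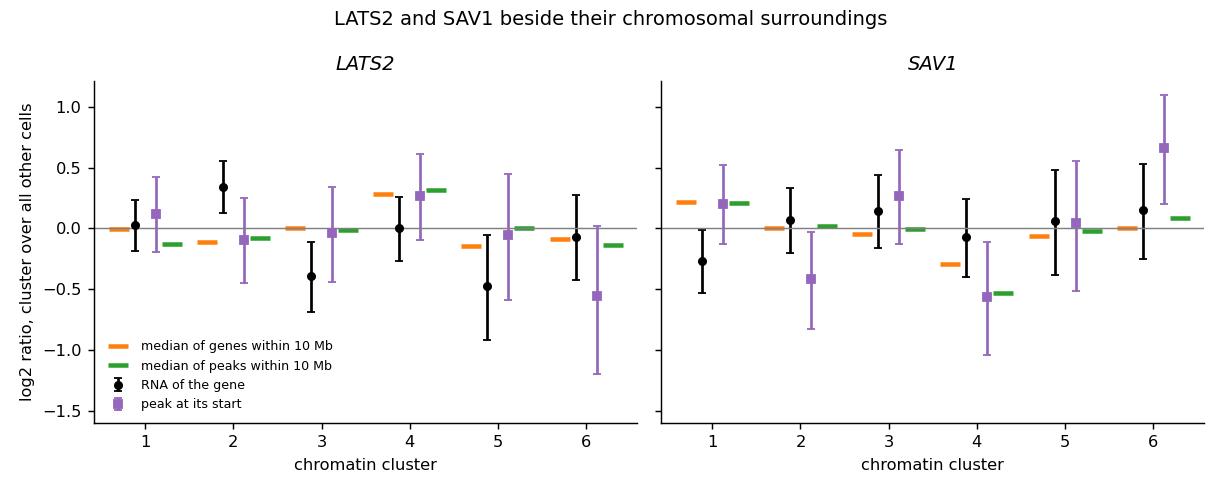
Log2 ratio of each of clusters 1 to 6 over all other cells for LATS2 and SAV1: RNA of the gene and the peak at its start with 95% intervals, and the medians of all genes and all peaks within 10 Mb. In cluster 4 the medians around SAV1 are -0.30 and -0.53 and those around LATS2 0.28 and 0.32, while the RNA of both genes stays close to 0.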

How the data were processed

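Expression and accessibility libraries of 1 pool of NCI-H226 and CL3 cells were measured, and a hashtag library was made beside them. The authors deposited raw counts of UMIs and of transposase cuts, as integers, in 1 joint matrix made with Cell Ranger ARC 2.0.0, per the file headers. The build GRCh38.p10 and the tools MACS2, ArchR 1.0.3 and Cell Ranger 2.0.0 are listed, with no role, in the submitters' processing notes. No source used here gives the settings of the peak calls. The files' gene features give the span of transcript starts as an interval.

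Cells were taken at 1000 UMIs, 1000 peak counts and 20% mitochondrial UMIs, which kept 30.4% of all UMIs. Scrublet in scanpy 1.11.5 marked 0 of 8913 cells, so it has not worked and doublets remain. An alternative left out the 8% with the highest scores. Peak counts were turned into 30 latent components, of which 1 was dropped for a correlation with depth over 0.75. The rest were scaled to unit length per cell after cluster depths had been seen. They were clustered with leidenalg 0.10.2 at resolution 0.5 on 15 neighbours. UMIs were summed per cluster and scaled to CPM. Ratios carry exact conditional binomial intervals at 95%, and 87.9% of peak entries were even, so peak counts were halved for intervals. The ratio and its intervals were tested on simulated data. No replicate exists, so no test was run.

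The 9 genes and all lists were chosen with earlier results of these data known. Named beside the members are the pathway genes with the largest called ratios per cluster (up to 3 each way), the 2 genes most like each member of at least 50 CPM, and for each member its start peak and the 2 other peaks with the largest called ratio, and further peaks were added after their values were seen. Gene lengths and promoters come from RefSeq GRCh38.p14. Of 6074 genes with 1 start in the files, 95.1% lay within 1 kb of the RefSeq start.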

Additional observations from a re-analysis of the deposited data

How the results depend on the processing

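The 2 called member comparisons over clusters became 1 when all peaks drew the clusters, at resolution 0.3, in clusters from expression, with components not scaled and without cluster 7, and 0 with at most 10% mitochondrial UMIs. Resolution 1.0 gave 3. The 40 called peak comparisons became 62 at resolution 0.3, 63 with components not scaled, 21 at minimums of 2000 for both counts and 0 with at most 10% mitochondrial UMIs. The settings that gave 21 and 0 keep fewer counts under the same floors, so fewer comparisons could be called at all. With at most 10% mitochondrial UMIs MOB1B has 76 UMIs, under the 100 that a call needs, and its ratio in cluster 5 was 0.42. The summed level of 523 CPM was 554 CPM with at most 10% mitochondrial UMIs and 608 CPM without mitochondrial genes in the total. The 1 call over free RNA became 4 with free RNA from 2 to 20 UMIs. The counts of 0 for YAP target and cycle groups stayed 0 under their alternatives. Of the cells in a cluster or its best match, 25.8% to 46.6% were in both for clusters 1 to 6 when components were not scaled and at most 28.9% in clusters from expression, and clusters 3 and 5 had 1 match between them in both and at resolution 0.3. Over alternatives with at least 50% in both, MOB1B in cluster 5 lay between 0.42 and 0.67 (8 alternatives) and LATS2 in cluster 3 between 0.63 and 0.81 (9 alternatives). LATS2 in cluster 2 lay between 0.86 and 1.44, and STK4 in cluster 1 between 0.88 and 1.31, both lowest with at most 10% mitochondrial UMIs, where STK3 in cluster 3 was highest, at 1.09. In that setting 7 called peaks turned to the other side: chr8:98910395-98911294 in cluster 1 (0.661), chr13:21079576-21080483 (1.72) and chr8:98781100-98781955 (0.992) in cluster 3, chr20:44911273-44912097 (0.852) and chr8:98901234-98902115 (0.615) in cluster 4, chr11:94813033-94813955 (0.688) in cluster 6 and chr11:94776250-94777174 (0.955) in cluster 7. With components not scaled chr11:94794394-94795194 in cluster 4 turned to 1.01. Of 1016 single values, 933 stayed within their interval, 75 moved and 8 turned. Only values called in the main setting could count as turned. Uncalled ratios that crossed 1, such as LATS2 in cluster 2, are among the 933 or the 75. The cause of these changes was not tested, and 1592 cells are left with at most 10% mitochondrial UMIs. No paired analysis was possible because all cells form 1 pooled sample and no ratio comes from a test.

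Depth limits the text most for AMOT and AMOTL1, with 6 and 31 UMIs, and for cluster 7 with 117 cells, and a ratio whose interval holds 1 does not show equal levels.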
